A study of Drosophila melanogaster with 8 samples.

Results

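The 10 genes described here encode proteins that move metabolites across the mitochondrial membranes. They comprise 2 porins of the outer membrane (porin and Porin2), 2 ADP/ATP translocases (sesB and Ant2), 2 phosphate carriers (Mpcp1 and Mpcp2), the carnitine carrier colt, the aspartate/glutamate carrier aralar1 and the uncoupling-type carriers Bmcp and Ucp4A. They were chosen by symbol, with earlier results of these data known, and all 10 were found among the 17562 genes of the tables. Porins are beta-barrel channels through which small metabolites pass between cytosol and intermembrane space. The carriers of the SLC25 family each exchange a set of substrates across the inner membrane, and flight muscle relies on them to deliver ADP and phosphate to ATP synthase and to return ATP to the myofibrils.

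RNA-seq was done on dissected thoraces of adult male Drosophila melanogaster from 2 crosses of tub-Gal80ts; dMef2-GAL4. The control was crossed to w[1118] and the other group to UAS-REPTOR[ACT], with 4 libraries of 5 to 6 thoraces each. All flies thus carried the muscle driver dMef2-GAL4 and the temperature-sensitive repressor, and only the second group could make REPTOR[ACT], a constitutively active form of a bZIP transcription factor that TORC1 signalling keeps inactive. Crosses stayed at 18 °C, males were gathered every 24 to 48 h, waited 3 to 4 days at 18 °C and then spent 4 days at 29 °C. The labels do not say whether replicates were separate cultures, so p-values measure only the spread between these samples. The question put to these genes is whether their transcripts differ between thoraces with and without active REPTOR in muscle.

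The libraries held 26.79 M to 50.03 M reads, and 12362 to 13045 genes had reads. All read counts given are the deposited values times 4, which rests on an inference described with the processing. Levels are TMM-scaled read counts in CPM, given as mean ± SD with n = 4 per group. They are per 1e+06 reads of the library's size in the genes tested, multiplied by its TMM factor. Genes that "rose" or "fell" had an adjusted p under 0.05 (edgeR quasi-likelihood, Benjamini-Hochberg over the 9903 genes tested), and SE denotes the standard error of a log2 fold change. REPTOR reads, from the transgene and the endogenous gene together, went from 105.5 ± 17.8 to 300.3 ± 28.4 CPM. The 10 muscle markers all passed the filter on low counts, and 5 rose and 1 fell, where 24.8% and 19.4% of all genes tested did. Their summed level was 24613 to 26669 CPM in control and 29147 to 30467 CPM in REPTOR[ACT]. This sum joins opposite changes, as Mhc went from 5635 to 9651 CPM and Act88F from 382 to 3360 CPM, but Mf from 7984 to 2375 CPM. The markers sls, fln, TpnC4 and bt were not called. Genes of the mitochondrial genome took 38.7 to 42.18% of the reads in control replicates 2 to 4, 30.43% in control replicate 1 and 31.55 to 34.14% in REPTOR[ACT]. With these genes left out of the counts the same number of carriers and porins, 5, was called lower.

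Of the 10 genes, 5 fell and none rose. The outer membrane channel porin, the main ADP/ATP translocase sesB, the phosphate carrier Mpcp1, the uncoupling-type carrier Ucp4A and the low-abundance Porin2 were lower in REPTOR[ACT], whereas Ant2, Mpcp2, colt, Bmcp and aralar1 were not called in either direction over all 8 libraries. With the replicate number as a block 7 of the 10 were lower, Mpcp2 and Bmcp being added, and without REPTOR[ACT] replicate 3 also 7, Mpcp2 and colt being added. Over all genes tested, 2428 of 9903 were lower with the block and 1728 of 10031 without that library. All 10 passed the filter on low counts. The 5 of 10 that fell compare with 19.4% of all genes tested, and the 0 that rose with 24.8%. As the 10 were chosen with earlier results of these data known, the shares are given only as a description. In either direction 44.2% of all genes changed. No member was higher at an unadjusted p under 0.05 either, nor with DESeq2 or limma-voom. With a log2 fold change over 1 in size as well, 2 of the 10 remained past the threshold (Porin2 and Ucp4A), against 6.88% of all genes. The median log2 fold change of the 10 was −0.42, and that of all genes was −0.0090. In a bulk sample, fewer cells of a type and less RNA per cell cannot be told apart.

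**Figure D1:**
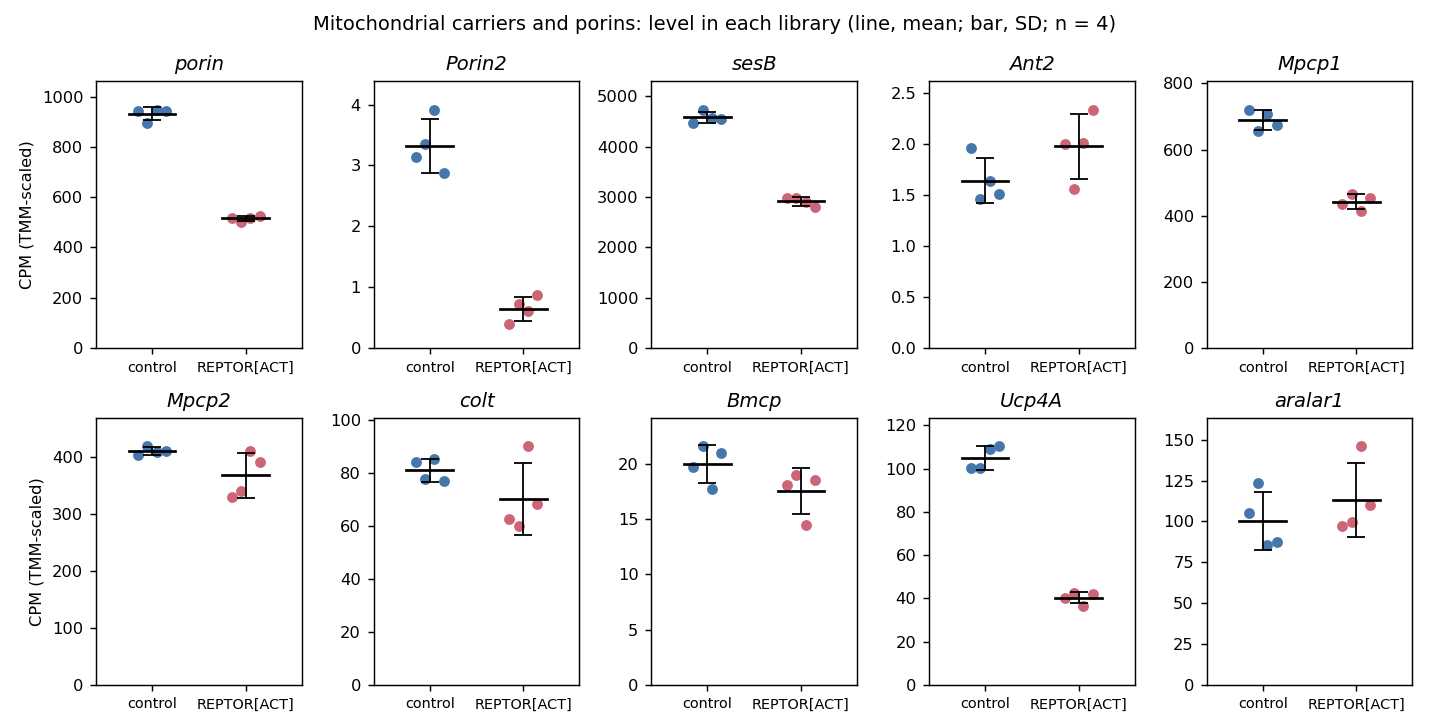
Each panel plots 1 gene, with its level in TMM-scaled CPM on the y axis (from 0, a scale of its own) and the 2 groups on the x axis. Points are libraries, lines means and bars SD (n = 4). The groups stand apart for porin, Porin2, sesB, Mpcp1 and Ucp4A and overlap for Ant2, Mpcp2, colt, Bmcp and aralar1.

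The porins lie next to each other. The gene porin (FBgn0004363, chromosome 2L, 10847227 to 10850848, minus strand, in BDGP6.54) ends 182 bases from the start of Porin2 (FBgn0069354, 2L, 10845788 to 10847044), which is on the same strand. The level of porin was 944, 893, 948 and 941 CPM in control replicates 1 to 4 and 518, 502, 517 and 523 CPM in REPTOR[ACT] replicates 1 to 4. The lowest control was far above the highest REPTOR[ACT] library, and the spread within each group was small. The mean went from 931 ± 25.9 down to 515 ± 9.09 CPM, a 1.81-fold fall (log2 fold change −0.85, SE 0.0521, adjusted p = 2.7e-07). An exon of porin shares 119 bases with SmydA-3 on the opposite strand, which was at 9.45 CPM.

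Porin2, a paralogue known mainly from the male germ line, was present at only 103, 161, 103 and 99 reads in the controls and 17, 21, 18 and 30 reads in REPTOR[ACT]. That is 3.15, 3.36, 3.92 and 2.87 CPM against 0.399, 0.728, 0.602 and 0.864 CPM, again without overlap. The fall was 5.17-fold, the largest of the 10 genes (log2 fold change −2.37, SE 0.211, adjusted p = 4.3e-06). Markers of testis were nearly absent: 15 of 16 stayed under 1 CPM in every library, 2 of them had no read at all, and their summed level was 1.68 to 2.44 CPM in control and 1.98 to 2.54 CPM in REPTOR[ACT]. The other marker, fzo, was at 1.69 and 1.72 CPM. Among 6 genes of sensory cilia 2 fell and none rose, where 19.4% and 24.8% of all genes tested did. Those that fell were Oseg2, with a log2 fold change of −2.35 (16.9 to 3.30 CPM), and Tektin-C, with −4.18 (7.71 to 0.427 CPM). The other 4, nompB, iav, nan and nompC, were not called (log2 fold changes of −0.48, 0.037, −0.098 and −0.034), and the summed level of all 6 went from 39.3 to 45.0 CPM in control to 16.9 to 20.3 CPM in REPTOR[ACT]. Their part in the change of Porin2 was not tested. A further pair of porin-like genes beside them, CG17139 and CG17140, share all their exon bases with each other and are listed at 0 in all libraries, which therefore cannot be read as a level.

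The ADP/ATP translocases exchange ADP from the cytosol for ATP made in the matrix. The genes sesB (FBgn0003360, X, 10780893 to 10786958) and Ant2 (FBgn0025111, X, 10778954 to 10786907) overlap on the minus strand and share 102 exon bases at their 5' ends (X, 10786806 to 10786907). The gene sesB was the most abundant of the 10, with 4477, 4736, 4576 and 4555 CPM in the controls and 2976, 2980, 2897 and 2798 CPM in REPTOR[ACT]. Every REPTOR[ACT] library was below every control. The group means were 4586 ± 109 and 2913 ± 85.7 CPM, a 1.58-fold fall (log2 fold change −0.65, SE 0.0519, adjusted p = 1.8e-06). Ant2 was at 1.95, 1.46, 1.64 and 1.51 CPM in control and 1.99, 1.56, 2.01 and 2.33 CPM in REPTOR[ACT], from 43 to 85 reads per library. The groups overlapped and no change was called (log2 fold change 0.28, SE 0.163, adjusted p = 0.19). The sources used here do not say how reads matching both genes were assigned, so part of the few Ant2 reads may belong to sesB.

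Phosphate carriers bring in the phosphate that ATP synthase joins to ADP. Mpcp1 (FBgn0034497, 2R, 20279066 to 20281127) was at 721, 655, 709 and 674 CPM in control and 434, 466, 415 and 454 CPM in REPTOR[ACT], with a wide gap between the groups. It fell 1.56-fold (log2 fold change −0.64, SE 0.0606, adjusted p = 6.9e-06). Mpcp2 (FBgn0026409, 3L, 14537651 to 14540441) gave 403, 419, 409 and 411 CPM in control and 329, 339, 411 and 391 CPM in REPTOR[ACT]. Replicates 1 and 2 of REPTOR[ACT] lay below all controls, replicate 4 just below them and replicate 3 among them. The difference did not pass the test (log2 fold change −0.16, SE 0.0754, adjusted p = 0.11), but it did without REPTOR[ACT] replicate 3 (−0.22, adjusted p = 0.032) and with the replicate number as a block (−0.17, adjusted p = 0.043). Leaving out any other library gave no call.

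The 3 pairs of related genes were also compared within libraries, where the ratio of reads does not depend on scaling. The log2 ratio of porin to Porin2 was 8.13 ± 0.191 in control and 9.66 ± 0.476 in REPTOR[ACT], a difference of 1.52. That of sesB to Ant2 was 11.45 ± 0.216 and 10.53 ± 0.273, a difference of −0.92, and that of Mpcp2 to Mpcp1 was −0.75 ± 0.0859 and −0.27 ± 0.199, a difference of 0.47. None of the 3 ratios overlapped between the groups. Each gave p = 0.029 in an exact two-sided permutation test over 70 assignments, the smallest value 4 against 4 libraries allow, and the same after adjustment over the 3 ratios. With libraries paired by replicate number, each gave p = 0.125 in an exact sign-flip permutation test, the smallest that 4 pairs allow, so the paired test could not pass the threshold. Porin2 reads were 0.357% ± 0.0475 of porin reads in control and 0.126% ± 0.0383 in REPTOR[ACT], and Ant2 reads were 0.0359% ± 0.00558 and 0.0680% ± 0.0127 of sesB reads. Mpcp2 reads were 59.6% ± 3.56 of Mpcp1 reads in control and 83.4% ± 11.7 in REPTOR[ACT].

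**Figure D2:**
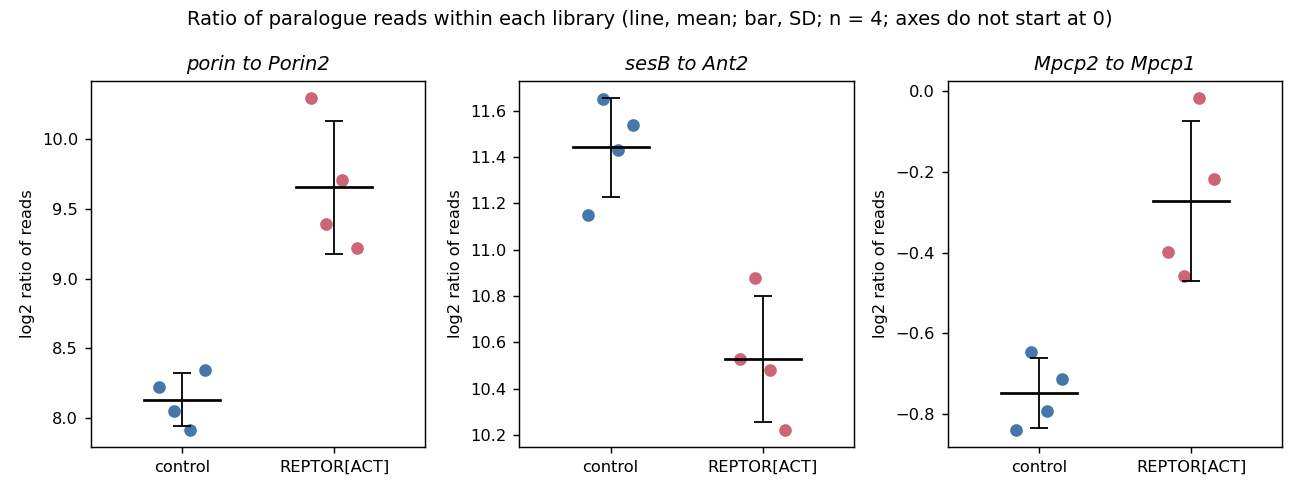
Each panel plots the log2 ratio of reads of 2 related genes (y axis, not starting at 0) in the 4 control and 4 REPTOR[ACT] libraries, with lines for means and bars for SD. Porin to Porin2 and Mpcp2 to Mpcp1 lie higher in REPTOR[ACT] (differences of 1.52 and 0.47), and sesB to Ant2 lies lower (−0.92).

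The uncoupling-type carriers resemble mammalian proteins that let protons leak into the matrix. Ucp4A (FBgn0030872, X, 17844949 to 17848223) was at 100.2, 100.5, 109 and 110.3 CPM in control and 40.03, 42.5, 36.6 and 42.2 CPM in REPTOR[ACT]. All REPTOR[ACT] libraries were under the lowest control by a wide margin. The fall was 2.605-fold (log2 fold change −1.38, SE 0.0671, adjusted p = 5.3e-08), the smallest p of the 10 genes. An exon of Ucp4A shares 114 bases with CG15814 on the opposite strand (24.3 CPM, log2 fold change −0.085, adjusted p = 0.40). Bmcp (FBgn0036199, 3L, 11720934 to 11728118) was at 19.7, 21.6, 17.8 and 20.97 CPM in control and 18.1, 19.04, 14.4 and 18.5 CPM in REPTOR[ACT]. The groups overlapped and no change was called (log2 fold change −0.19, SE 0.0965, adjusted p = 0.13), though blocking on replicate number gave −0.19 with an adjusted p of 0.017.

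The gene colt encodes the carnitine/acylcarnitine carrier, which takes fatty acids bound to carnitine into the matrix. It lies on 2L (FBgn0019830, 2768590 to 2770069). Its level was 84.2, 77.6, 85.1 and 76.9 CPM in control and 62.4, 59.7, 89.97 and 68.2 CPM in REPTOR[ACT], so 3 of the 4 REPTOR[ACT] libraries lay below the controls and replicate 3 above them. No change was called over all libraries (log2 fold change −0.21, SE 0.117, adjusted p = 0.18), while without REPTOR[ACT] replicate 3 the gene fell by 0.35 (SE 0.0711, adjusted p = 0.0025). Leaving out any other library gave no call (adjusted p of 0.22 to 0.41), nor did the replicate number as a block (adjusted p = 0.055). The outer membrane enzyme of the same route, the carnitine palmitoyltransferase whd, was at 201 ± 9.79 and 196 ± 13.5 CPM (log2 fold change −0.036, adjusted p = 0.69). Inside the inner membrane, CPT2 was at 26.99 and 28.3 CPM (0.070, adjusted p = 0.52). Only the carnitine acetyltransferase CRAT among these rose (0.35, SE 0.0596, adjusted p = 5.8e-04).

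The carrier aralar1 (FBgn0028646, 3R, 30445635 to 30455867) exchanges mitochondrial aspartate for cytosolic glutamate in the malate-aspartate shuttle. It was at 105.3, 123, 85.3 and 87.5 CPM in control and 96.9, 99.6, 146 and 110 CPM in REPTOR[ACT], with control replicate 2 above 3 of the REPTOR[ACT] libraries. The log2 fold change was 0.17 (SE 0.159, adjusted p = 0.42), and 0.025 without REPTOR[ACT] replicate 3 (adjusted p = 0.90). The shuttle's enzymes Got1, Got2 and Mdh1 were likewise highest in that library, at 134%, 196% and 150% of their control means, and lowest in REPTOR[ACT] replicate 2, at 80.6%, 81.2% and 85.6%. None of them was called (log2 fold changes 0.042, 0.35 and 0.18). Mdh2, the mitochondrial malate dehydrogenase, fell (−0.42, SE 0.0558, adjusted p = 9.3e-05) and was at 69.9 to 77.6% of its control mean in all 4 libraries. The sum of the fat body markers was also highest in REPTOR[ACT] replicate 3, though of its members only Lsp2 and Fbp1 were: the summed level of the 6 found in the tables was 6546 CPM there, 4504 to 6005 CPM in the other REPTOR[ACT] libraries and 4048 to 5567 CPM in control, with none of the 5 tested called and Fbp1 at 5 reads or fewer. Gut markers, 0 of 3 tested called, summed to 90.3 CPM in that library, of which 86.5 CPM were Amy-p alone. Their sum was 15.6 to 54.0 CPM in the other REPTOR[ACT] libraries and 25.4 to 44.0 CPM in control. The gut marker Mal-A1 was lowest of all libraries in REPTOR[ACT] replicate 3 (2.67 CPM). Both alphaTry and Jon65Aiv were highest in REPTOR[ACT] replicate 4 (0.749 CPM each). The part of these cells in the values of aralar1, colt and Mpcp2 was not tested.

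**Figure D3:**
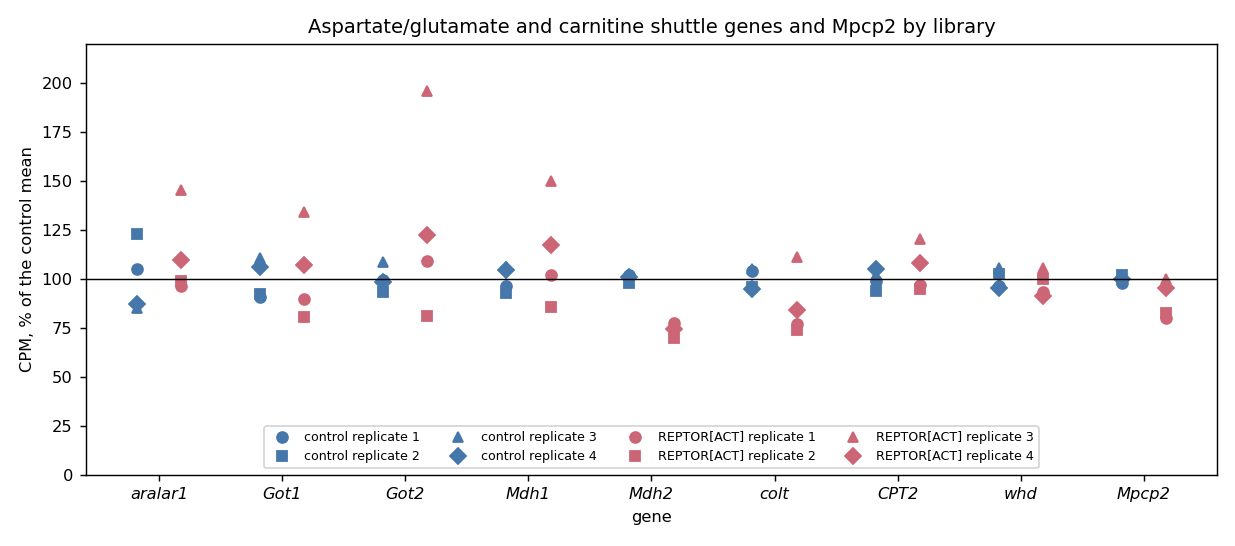
The y axis gives CPM as a percentage of the gene's control mean, and the x axis the genes of the aspartate/glutamate and carnitine routes and Mpcp2. Symbols are libraries (blue, control; red, REPTOR[ACT]; the shape gives the replicate number). REPTOR[ACT] replicate 3 (red triangle) is the highest of its group for aralar1, Got1, Got2, Mdh1, colt, CPT2, whd and Mpcp2, and Mdh2 lies at or below 77.6% in all 4 REPTOR[ACT] libraries.

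Among themselves the 10 genes spanned a wide range. Per kilobase of annotated exon, the control level was highest for sesB (2286 ± 54.2 CPM per kb), followed by Mpcp1 (459.97 ± 20.3), porin (326 ± 9.06) and Mpcp2 (225 ± 3.60). Then came colt (54.7 ± 2.91) and Ucp4A (50.5 ± 2.63), whose control ranges overlapped, aralar1 (29.7 ± 5.25), Bmcp (10.8 ± 0.912), Porin2 (2.95 ± 0.392) and Ant2 (1.14 ± 0.155). All other neighbours in this order had separate ranges in control. In REPTOR[ACT], Mpcp2 (202 ± 21.6 CPM per kb) and porin (180 ± 3.18) had overlapping ranges, Ucp4A (19.4 ± 1.29) had dropped below aralar1 (33.5 ± 6.69), and Porin2 (0.575 ± 0.175) was below Ant2 (1.37 ± 0.221). The summed level of the 10 genes was 6859 to 7030 CPM in control and 4408 to 4530 CPM in REPTOR[ACT], and sesB made up 66.2% ± 0.879 and 65.0% ± 1.5 of it. The 3 most abundant genes per kilobase in control, sesB, Mpcp1 and porin, were all among the 5 that fell. The control and REPTOR[ACT] values were fully separated in 5 of the 10 genes, compared with 41.9% of all genes tested. The genes with at least 10 CPM whose levels ran most closely with porin over the 8 libraries (Pearson correlation of log2 CPM 0.998 to 0.999) were Cln3, CG11617, CG15247, Drsl4 and blp, with log2 fold changes of −3.51 to −1.21. This likeness includes the difference between the groups.

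Of 39 other SLC25-type genes listed, 21 passed the count filter, of which 7 fell and 3 rose, with a median log2 fold change of −0.018. These 10 of 21 compare with the 44.2% called among all genes. The mitochondrial carrier gene CG18324 had the largest change, with 23.0 CPM in control and 8.70 in REPTOR[ACT] (log2 fold change −1.40, SE 0.0840, adjusted p = 2.4e-07). However, 1297 of its 1401 exon bases are shared with an antisense RNA, asRNA:CR44368, and the sources used here do not state how strand was treated. DPCoAC, a carrier of dephospho-CoA, which shares 58.6% of its exon bases with att-ORFB, fell by 0.85 on the log2 scale and Rim2, a pyrimidine nucleotide carrier, by 0.75. The largest increase was that of MME1, a mitochondrial magnesium exporter, at 15.6 CPM in control and 30.7 in REPTOR[ACT] (a log2 fold change of 0.98, SE 0.102, adjusted p = 1.4e-05). The 18 that were not tested include 6 with no read in any library. Shawn and Tyler, at 0, share all their exon bases with each other. The gene sea, at 5 reads or fewer, shares 85.2% with fabp, and CG8026, at 8 or fewer, 97.4% with CG45085, so these 4 values cannot be read as levels. All exon bases of Ucp4B, at 3 reads or fewer, and of GC2, at 9 or fewer, are shared with opposite-strand genes (asRNA:CR43465 and Tango9). As the treatment of strand is not stated, neither value can be read as a level.

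**Figure D4:**
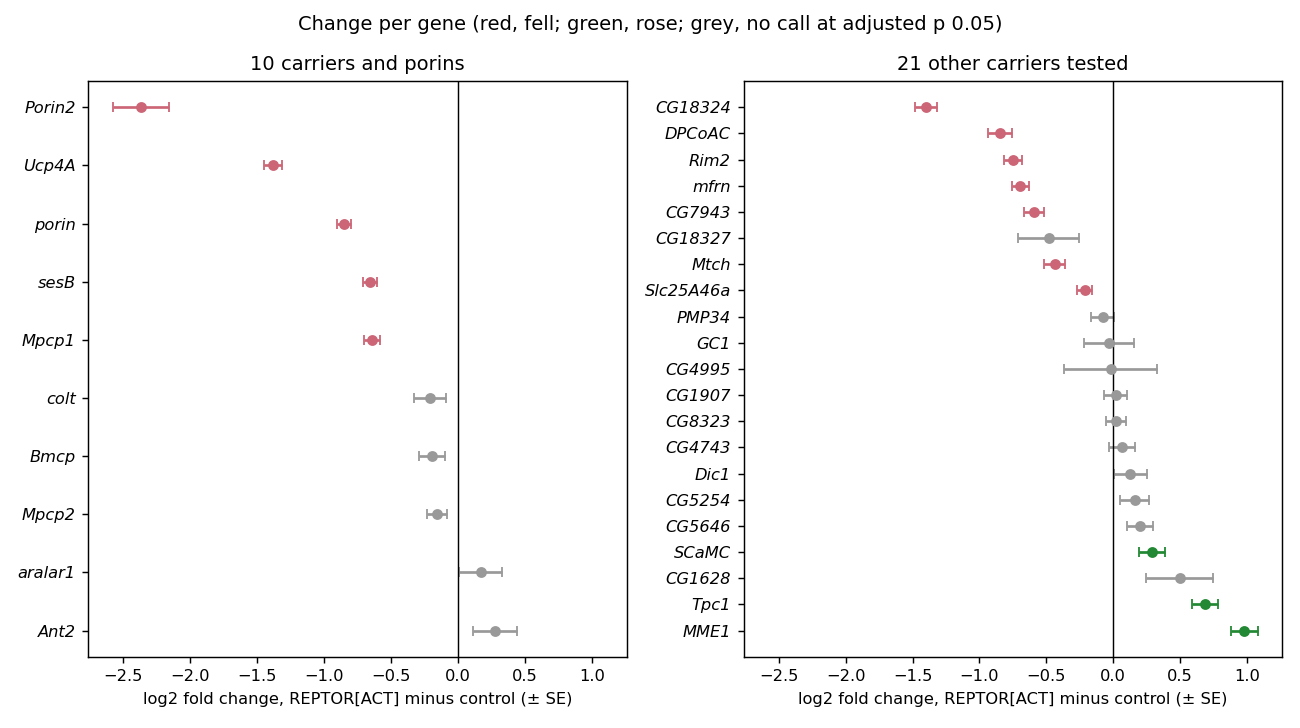
The x axis gives the log2 fold change, REPTOR[ACT] minus control, with bars for SE, and each line of the y axis is 1 gene, for the 10 carriers and porins (left) and the 21 other carriers tested (right). Red genes fell, green rose and grey were not called; 5 of 10 on the left are red and none green, and 7 of 21 on the right are red and 3 green.

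Carriers and porins are made in the cytosol and enter mitochondria through the TOM complex, and carriers are then guided by small Tim proteins. Of 8 tested genes of this route 3 rose and 1 fell, where 24.8% and 19.4% of all genes did. The TOM subunits Tom7 and Tom20 rose by 0.74 (SE 0.0676) and 0.55 (SE 0.0571) on the log2 scale, and the receptor Tom70, on which carriers depend, by 0.28 (adjusted p = 0.039, a call lost under 7 of 16 alternatives). Tim8 fell (−0.42, SE 0.0661, adjusted p = 3.6e-04), and Tom40, the channel itself, was at −0.084 (adjusted p = 0.28). Tim9b and Tim10, listed at 0, share 100% and 90.7% of their exon bases with other genes on the same strand.

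Of 17 tested genes that work beside the carriers 6 fell and 3 rose, with a median of −0.11, against the 44.2% of all genes called in either direction. Hex-A, a hexokinase of the kind that binds porin in mammals, fell by 0.34 (SE 0.0831, adjusted p = 0.0059), the pyruvate carrier subunit Mpc1 by 0.32 (adjusted p = 0.0046) and the glycerol-3-phosphate dehydrogenase Gpdh1 by 0.32 (adjusted p = 0.011, with groups that overlapped). Its mitochondrial partner Gpo1 was at −0.21 (adjusted p = 0.11), and at −0.22 with the replicate number as a block (adjusted p = 0.0345). EMRE, a subunit of the mitochondrial calcium uniporter, rose from 17.5 to 42.99 CPM (1.30 on the log2 scale, SE 0.0644), while the pore gene MCU was called lower by a small margin (−0.17, adjusted p = 0.041) that 9 of 16 alternatives did not keep. The ATP synthase that sesB and the phosphate carriers serve had 6 of 13 subunit genes lower and 1 higher, with a median of −0.038, again beside 44.2% called among all genes. Its falls were smaller in size than that of sesB in each case: ATPsynCF6 (−0.50), blw (−0.42), ATPsynD (−0.34) and ATPsynO (−0.33). Whether they differ from that of sesB was not tested.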

How the data were processed

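Poly-A RNA of 8 thorax samples, 4 per genotype, was analysed from gene tables. Per the labels and the study's methods, quality control by the authors used FastQC and MultiQC, alignment used STAR with a FlyBase genome, and their tests used DESeq2. The labels name the mouse build, which cannot apply to fly reads. The sources used here name neither the counting tool nor its handling of strand and of multiply matching reads. Each deposited gene value is an expected count, unscaled for depth. All values were multiples of 0.25 (within 1e-06), which a mean over the 4 sequencing pools would give (an inference), and were multiplied by 4 to whole reads (26.79 M to 50.03 M per library). At this depth 3 reads are 0.0600 to 0.112 CPM before TMM scaling, for counting error only.

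Genes were filtered with filterByExpr (10 reads at median depth, 15 in total; 9903 kept), scaled with TMM and tested with edgeR 4.0.16 (R 4.3.3) by robust quasi-likelihood on all 8 libraries with no covariate, with adjustment over all genes. The alternatives were RLE factors, total library size, no mitochondrial genome, no filter, DESeq2 1.42.0, limma-voom (limma 3.58.1), rounding of the deposited values, the replicate number as a block and leaving out each library. Deviations of same-numbered libraries from their group means correlated at 0.138, 0.433, 0.220 and 0.137, all over 0.1, which was taken as pairing, although the labels do not say what a number stands for and replicates 3 and 4 correlated as much with another number (0.221 and 0.168). The tests reported are unpaired, with the blocked values beside those of the 10 genes whose call they change. Ratios of related genes used reads plus 0.5. Coordinates, exon lengths and overlaps are from Ensembl's BDGP6.54 annotation. The test was checked on simulated data. No 2 libraries of the same group agreed within counting error. The members and lists were chosen with earlier results of these data known. Named were all 10 members, up to 4 called genes with the largest change per list (mean of at least 1 CPM), 10 fixed partner genes and the 5 genes most like porin. Of the genes this rule names, 1 is not reported here. Other genes were named after their values were seen.

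Among the 15 lists, in those not described in the report, neuron markers had 2 of 7 lower, hemocyte markers 1 of 5 lower and 1 higher, gut markers 0 of 3 tested called and trachea and epidermis markers 1 of 4 lower, and no accessory gland marker passed the filter. Of all genes tested, 19.4% were called lower and 24.8% higher.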

Additional observations from a re-analysis of the deposited data

Results flagged for a closer look

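One value stood apart from its group. The level of porin in control replicate 2 was 893 CPM, while the other controls lay at 941 to 948 CPM, so that its gap to the nearest control took up 0.874 of the group's range, more than Dixon's 95% limit for 4 samples. It remained far above the REPTOR[ACT] libraries. Of 20 groups examined (10 genes in 2 genotypes) this was 1 flag, and chance gives about 1 in 20.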

How the results depend on the processing

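The 5 genes that fell, porin, Porin2, sesB, Mpcp1 and Ucp4A, did so under every alternative run, and 5 to 7 of the 10 genes were called lower and none higher. The calls that changed were gains: Mpcp2 with the replicate block (−0.17) and without REPTOR[ACT] replicate 3, colt without that library and Bmcp with the replicate block (−0.19). Leaving out 1 library at a time gave log2 fold changes of −0.22 to −0.11 for Mpcp2 and −0.35 to −0.13 for colt. The block changed no other call of the 10 genes, and 5233 genes were called with it, against 4377. With the ratios paired by number the differences stayed at 1.52, −0.92 and 0.47, each with an exact sign-flip p of 0.125, the smallest 4 pairs allow. Of the counted calls in other lists, MCU lost its call under 9 of the 16 alternatives, Argk1 under 8 and Tom70 under 7. SCaMC lost it under 6, ATPsynG under 5 and Slc25A46a under 1. Calls were also gained: ATPsynB and ATPsynC under 4 alternatives, Gpo1 under 2, and CG18327, CG5646, CG1628 and ATPsynF under 1 each. With losses and gains together, 6 to 8 of the other carriers were called lower and 2 or 3 higher. Among the gains with the replicate block, Gpo1 (−0.22) was called lower, and the carrier CG1628 (0.48), ATPsynC (0.15) and ATPsynF (0.19) were called higher. Counting limits Porin2 and Ant2 most, with 17 to 161 and 43 to 85 reads per library.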
